A study of Mus musculus with 20 samples.

Results

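The genes described are 6 metabotropic glutamate receptor genes, Grm2, Grm3, Grm4, Grm5, Grm7 and Grm8, measured by bulk RNA-seq in the hippocampus of mice that had been infused with small RNAs (sRNAs) from human brain. They were picked by gene name from the 25190 genes of the count table, and each name matched 1 row. In all 20 libraries every one of the 6 had reads.

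Metabotropic glutamate receptors are G-protein-coupled receptors that sense glutamate, the main excitatory transmitter, and tune synapses more slowly than the ion channels that glutamate opens. Group I receptors, here Grm5, couple to Gq, phospholipase C and calcium release, and sit mainly on the postsynaptic side, where Homer and Shank proteins hold them in place. Group II (Grm2, Grm3) and group III (Grm4, Grm7, Grm8) couple to Gi/o, lower cyclic AMP and mostly restrain transmitter release. In the hippocampus Grm2 is known from dentate granule cells and their mossy fibres, Grm3 also from astrocytes, and Grm7 from the presynaptic active zone, while Grm4 is abundant in cerebellum and is also found in thalamus.

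The mice were wild-type C57BL/6JOlaHsd males, 4 months old by the sample labels and 3 to 4 months by the methods, with 5 mice in each of 4 groups. All carried cannulas over the dorsal hippocampus and received 2 bilateral infusions of 2 µL, 48 hours apart. Artificial cerebrospinal fluid was given to Vehicle mice, and Control mice were given sRNAs pooled from 9 people without psychiatric illness, and Pool 1 and Pool 2 mice were given sRNAs pooled from separate sets of 10 patients with schizophrenia, each at 0.24 µg/µL. Tissue was taken 24 hours after the final behavioural test. Each human source was a single pool, so the 5 mice of a group repeat the infusion and not the donors, and p-values measure the spread between mice that shared a pool. The comparisons ask whether sRNAs from patients altered gene expression relative to sRNAs from controls, and whether sRNAs as such did so relative to vehicle. By the paper, patient donors were mostly male while the Control pool held both sexes, and patients differed in antipsychotic exposure. Diagnosis therefore cannot be told apart from donor sex or medication in the comparisons with Control.

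Libraries held 20588280 to 25543939 counts. Series text names CA1 as the tissue and the methods name the hippocampus. Markers of CA1 pyramidal cells (summed level 503 to 1328 CPM, counts scaled to library size), CA3 pyramidal cells (1349 to 2377 CPM) and dentate granule cells (238 to 692 CPM) were present in every library. A few libraries stood apart. Vehicle replicate 4 had a summed choroid plexus marker level of 8984 CPM, against at most 2298 CPM elsewhere, Pool 2 replicate 1 had a microglia marker level of 1075 CPM, against at most 486 CPM, and Pool 2 replicate 4 had a thalamus marker level of 733 CPM, against at most 419 CPM. In bulk tissue, fewer cells of a type and less RNA per cell cannot be told apart.

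The receptor genes lie on 5 mouse chromosomes (GRCm38) and differ widely in size. Grm2 is the most compact, at chr9:106643095-106656082 on the minus strand, spanning 13.0 kb. Grm3 occupies chr5:9485541-9725170 (minus strand), Grm4 chr17:27422387-27521403 (minus), Grm5 chr7:87584168-88134907 (plus), Grm7 chr6:110645581-111567230 (plus, 921.6 kb) and Grm8 chr6:27275119-28135178 (minus). The group III members are close paralogs, so it matters whether a 50-base read can be assigned to 1 of them. No 50-base stretch of their transcripts was shared between any members, and the closest ungapped match between coding sequences, of Grm2 and Grm3, still held 4 mismatches. Within group III the closest matches held 5 mismatches for Grm4 and Grm7, 7 for Grm4 and Grm8 and 6 for Grm7 and Grm8. As an example, a conserved coding stretch of Grm4 is set beside the matching bases of Grm7 and Grm8, each written 5′ to 3′ on the gene's own strand. They lie at chr17:27434657-27434706 (minus strand, exon 9 of 11 of the transcript used), chr6:111358907-111358956 (plus, exon 8 of 11) and chr6:27363209-27363258 (minus, exon 8 of 10). Capitals in Grm7 and Grm8 mark bases that differ from Grm4, and capitals in Grm4 mark bases that differ from either of the others.
Grm4: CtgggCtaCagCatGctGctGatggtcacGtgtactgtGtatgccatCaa
Grm7: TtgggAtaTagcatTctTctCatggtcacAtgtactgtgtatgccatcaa
Grm8: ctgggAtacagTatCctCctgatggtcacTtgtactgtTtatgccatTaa
Over these 50 bases Grm7 and Grm8 each differed from Grm4 at 7 positions. Shared stretches with genes outside the family covered 8.53% of the 50-base windows of Grm2 (with the gene model Gm28111), 1.365% of Grm7 (with Gm20387 on the opposite strand), 0.471% of Grm8 and 0.136% of Grm5, and none of Grm3 or Grm4. Gm20387 had a mean count of 43.9, and whether reads were counted by strand is not given in the sources used here, so reads of Grm7 and Gm20387 in the overlap cannot be told apart. Grm5 overlaps Gm44846 on the same strand, which had a mean count of 107.8.

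Per length, Grm5 was the most abundant of the 6 in every library and Grm8 the least. CPM were divided by kilobases of merged exon for this order, which ran Grm5 (26.0 ± 5.33 CPM per kb, mean ± SD, n = 20), Grm3 (12.2 ± 1.41), Grm2 (10.1 ± 3.42), Grm7 (9.58 ± 1.43), Grm4 (1.98 ± 0.652) and Grm8 (0.424 ± 0.184). Grm5 exceeded Grm3, Grm7 exceeded Grm4 and Grm4 exceeded Grm8 in 20 of 20 libraries. Neighbours in the middle were not separated beyond their spread, as Grm3 was above Grm2 in 15 of 20 libraries and Grm2 above Grm7 in 10 of 20.

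**Figure D1:**
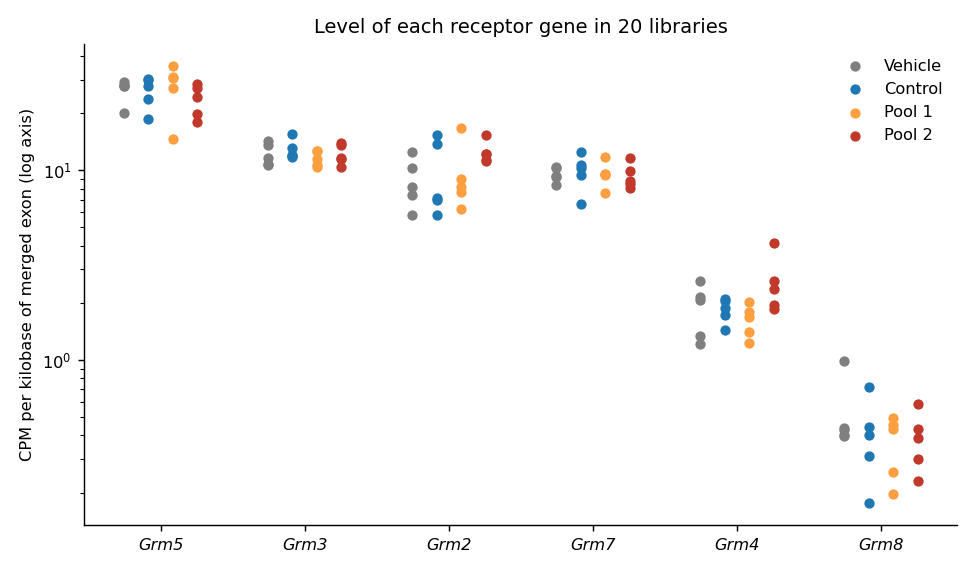
Level of each receptor gene in CPM per kilobase of merged exon (log axis), 1 point per library, coloured by group, with genes ordered by their mean. Grm5 sits at the top (mean 26.0 CPM per kb), with its lowest library at 14.6 CPM per kb. The ranges of Grm3 (10.4 to 15.4), Grm2 (5.77 to 16.8) and Grm7 (6.66 to 12.4) overlap, and Grm4 and Grm8 lie below.

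Differences between groups were tested with edgeR's quasi-likelihood test over the whole table, and a gene was counted as past the threshold where its log2 fold change reached 0.3 in either direction with an unadjusted p under 0.05. None of the 6 members passed in Pool 1 vs Control, where 3.48% of all genes did (1.48% higher and 1.99% lower). In Pool 2 vs Control 1 member passed, Grm4, with 6.22% of all genes past the threshold (5.20% higher and 1.01% lower). Grm4 was also the only member past it in Pool 2 vs Pool 1 (6.82% of all genes) and in Pool 2 vs Vehicle (4.69%). In Control vs Vehicle (5.10% of all genes) and Pool 1 vs Vehicle (5.34%) no member passed. These comparisons share groups with each other and are not independent. Of the 36 values, 3 had an unadjusted p under 0.05. The lowest Benjamini-Hochberg adjusted p was 0.368. The groups overlapped in all 36, but the share of all genes that overlap is not given here. The overlap therefore only describes the members. No gene of the table had an adjusted p under 0.05 by edgeR in any comparison, while 1314 to 2146 had an unadjusted p under 0.05 and DESeq2 had 0 to 115 genes at an adjusted p under 0.05.

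**Figure D2:**
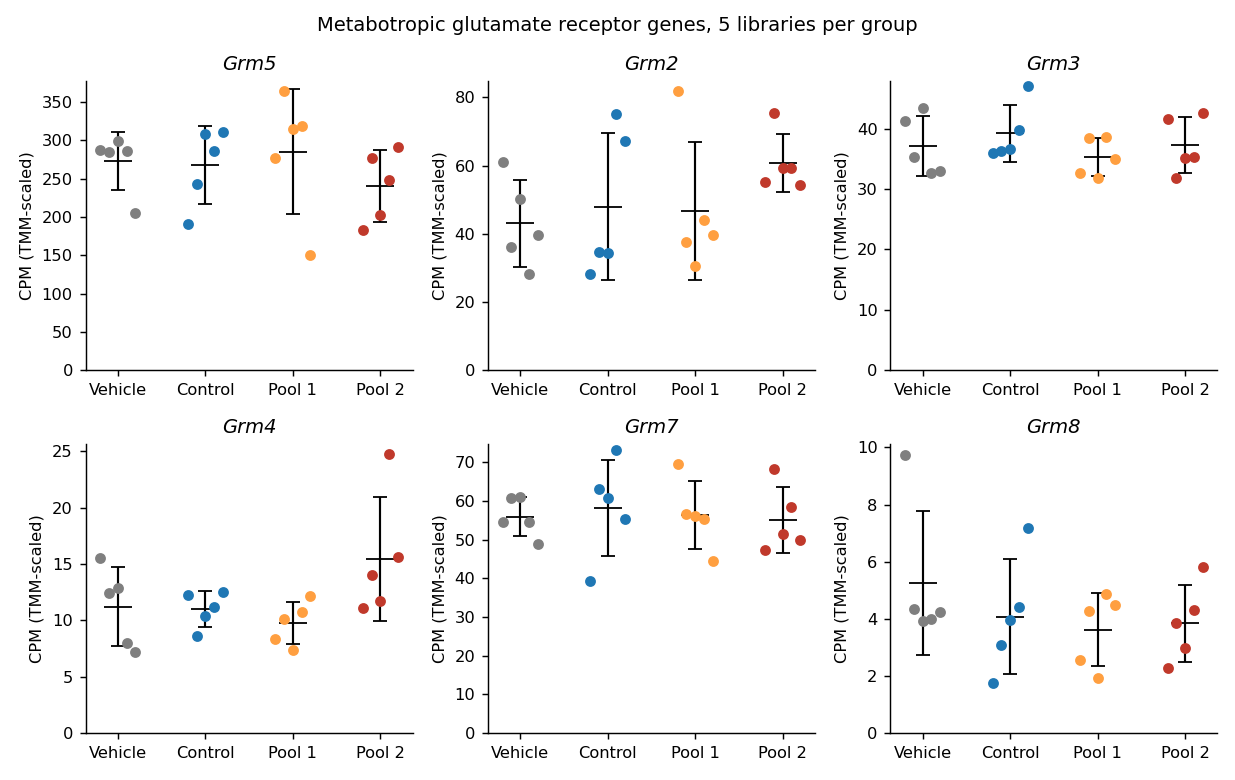
CPM of each receptor gene in every library, by group, with the points of a group in order of replicate number and bars for the mean ± SD (n = 5). Grm4 has a high point of 24.8 CPM in Pool 2, Grm2 splits into high and low mice in Control (28.3 to 75.3 CPM), and all groups overlap in every panel.

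Grm5, the postsynaptic group I receptor, had overlapping levels in the 4 groups and no difference past the threshold. Its level was 287, 285, 299, 286 and 206 CPM in Vehicle mice (replicates 1 to 5) and 191, 243, 308, 286 and 311 CPM in Control mice. Pool 1 mice had 277, 364, 315, 319 and 150 CPM, and Pool 2 mice 183, 277, 202, 248 and 291 CPM. Pool 1 therefore held both the highest and the lowest library, and Pool 2 reached neither end. The log2 fold change was 0.09 in Pool 1 vs Control (SE 0.19, 95% CI -0.31 to 0.49) and -0.15 in Pool 2 vs Control (SE 0.19, 95% CI -0.55 to 0.25), with edgeR adjusted p of 0.987 and 0.915. The value in Pool 2 was -0.07 without Pool 2 replicate 1 and -0.26 without Control replicate 1. Pool 2 was -0.24 from Pool 1 (95% CI -0.64 to 0.16), which did not pass, although it reached -0.41 and the threshold when Pool 1 replicate 5, the lowest library, was left out.

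Grm2, the group II autoreceptor of mossy fibres, had the widest range as a fold among the members other than Grm4 and Grm8, 2.90 from the lowest to the highest library. Vehicle mice had 61.0, 36.1, 50.2, 28.3 and 39.7 CPM, and Control mice 28.3, 34.8, 34.3, 75.3 and 67.2 CPM. Pool 1 mice had 82.0, 37.5, 30.6, 44.0 and 39.7 CPM, and Pool 2 mice 55.2, 75.3, 59.4, 59.3 and 54.4 CPM. Control mice fell into a low set of 3 and a high set of 2, Pool 1 held 1 high mouse, and all Pool 2 mice lay above 54 CPM. Pool 2 vs Control gave a log2 fold change of 0.34 (SE 0.30, 95% CI -0.29 to 0.96) with an edgeR adjusted p of 0.854, inside the spread between mice. It was 0.20 without Control replicate 1 and 0.55 without Control replicate 4, past the threshold in neither case. Pool 1 vs Control gave -0.04 (SE 0.30, 95% CI -0.66 to 0.59). Against Vehicle the difference of Pool 2 was 0.50 (SE 0.30, 95% CI -0.13 to 1.12), which edgeR did not call in the joint model of the 4 groups (p = 0.114, adjusted p = 0.912), while the exact two-sided permutation test on log2 CPM gave p = 0.0476. With only these 2 groups in the model it did pass the threshold (0.49, edgeR adjusted p = 0.881). Only 2 of the 36 permutation tests had a p under 0.05, without adjustment, and the smallest p that 5 mice against 5 allow is 0.00794.

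Grm3, the group II receptor of neurons and astrocytes, was the steadiest member, with a coefficient of variation of 11.5% over the 20 libraries. Vehicle mice had 41.2, 35.2, 43.4, 32.6 and 32.9 CPM, and Control mice 36.0, 36.3, 36.6, 39.8 and 47.1 CPM. Pool 1 mice had 32.6, 38.5, 31.9, 38.6 and 35.0 CPM, and Pool 2 mice 41.6, 31.7, 35.1, 35.3 and 42.5 CPM. The 4 groups overlapped throughout, and in each pool 3 mice lay below every Control mouse. The log2 fold change was -0.15 in Pool 1 vs Control (SE 0.10, 95% CI -0.36 to 0.06) and -0.07 in Pool 2 vs Control (SE 0.10, 95% CI -0.29 to 0.14), with edgeR adjusted p of 0.920 and 0.926. The value in Pool 1 was -0.07 without Control replicate 5. The interval in Pool 2 lies within 0.3 on either side of 0.

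Grm4, a group III receptor, was higher in Pool 2 than in the other groups at the unadjusted threshold, and its difference from Control fell below the threshold without Pool 2 replicate 4. Vehicle mice had 15.5, 12.4, 12.8, 7.99 and 7.21 CPM, and Control mice 12.2, 8.61, 10.4, 11.2 and 12.5 CPM. Pool 1 mice had 8.37, 10.1, 7.38, 10.7 and 12.1 CPM, and Pool 2 mice 11.1, 14.1, 11.7, 24.8 and 15.6 CPM. Of the Pool 2 mice 3 lay above all Control mice and 3 above all Pool 1 mice, and the other two lay among them. Pool 2 replicate 4 had the highest value of the series.

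The means were 15.4 ± 5.54 CPM in Pool 2 and 11.0 ± 1.58 CPM in Control (SD, n = 5 each), a log2 fold change of 0.49 (SE 0.22, 95% CI 0.04 to 0.94) with an edgeR p of 0.0346 and an adjusted p of 0.606. The exact two-sided permutation test on log2 CPM gave p = 0.0794. Without Pool 2 replicate 4 the log2 fold change was 0.25 (edgeR adjusted p = 0.835) and not past the threshold, and the call was also lost when Control replicate 2, 3 or 4 or Pool 2 replicate 5 was left out. It was lost too with the replicate number as a block (0.47), and held in 12 of 18 alternatives in all. Against Pool 1 (9.74 ± 1.89 CPM, SD, n = 5) the Pool 2 difference was 0.66 (SE 0.22, 95% CI 0.21 to 1.12), with an edgeR p of 0.00633, an adjusted p of 0.368 and an exact permutation p of 0.0317. It stayed past the threshold in all 18 alternatives run, from 0.43 without Pool 2 replicate 4 to 0.76 without Pool 2 replicate 1. Against Vehicle (11.2 ± 3.50 CPM, SD, n = 5) it was 0.46 (SE 0.22, 95% CI 0.01 to 0.91), with an edgeR p of 0.0457, an adjusted p of 0.900 and an exact permutation p of 0.183, and it was 0.23, not past the threshold, without Pool 2 replicate 4. The call against Vehicle was lost as well without Vehicle replicate 4 or 5 or Pool 2 replicate 5, without Vehicle replicate 4 and Pool 2 replicate 1 together (0.46), with only the 2 groups compared (0.47) and with the replicate block (0.43). It held in 11 of 18 alternatives. Pool 1 vs Control was -0.17 (SE 0.22, 95% CI -0.63 to 0.29), within the spread between mice, and ran from -0.26 without Pool 1 replicate 5 to -0.09 without Pool 1 replicate 3.

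Grm7, the low-affinity group III receptor of the presynaptic active zone, had similar means in the 4 groups. Its mean was 55.9 ± 5.02 CPM in Vehicle, 58.2 ± 12.4 in Control, 56.4 ± 8.85 in Pool 1 and 55.1 ± 8.42 in Pool 2 (SD, n = 5 each). Single mice ran from 39.2 CPM (Control replicate 1) to 73.1 CPM (Control replicate 4), so Control alone held both extremes. Log2 fold changes were -0.05 in Pool 1 vs Control (SE 0.13, 95% CI -0.32 to 0.23) and -0.08 in Pool 2 vs Control (SE 0.13, 95% CI -0.36 to 0.20), with edgeR adjusted p of 0.992 and 0.939.

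Grm8, the remaining group III receptor, was counted with few reads, 39 to 231 per library, and its values scattered most for their size. Vehicle mice had 9.73, 4.33, 3.92, 3.99 and 4.24 CPM, and Control mice 1.74, 3.09, 3.96, 4.41 and 7.16 CPM. Pool 1 mice had 2.55, 4.26, 1.94, 4.87 and 4.49 CPM, and Pool 2 mice 2.29, 3.86, 2.96, 4.30 and 5.80 CPM. Vehicle replicate 1 stood above all others, and Control alone spanned 4.11-fold. The log2 fold change was -0.17 in Pool 1 vs Control (SE 0.35, 95% CI -0.90 to 0.56) and -0.08 in Pool 2 vs Control (SE 0.35, 95% CI -0.81 to 0.64). At this depth and spread, both intervals included 0.49, the log2 fold change of Grm4 in Pool 2 vs Control.

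**Figure D3:**
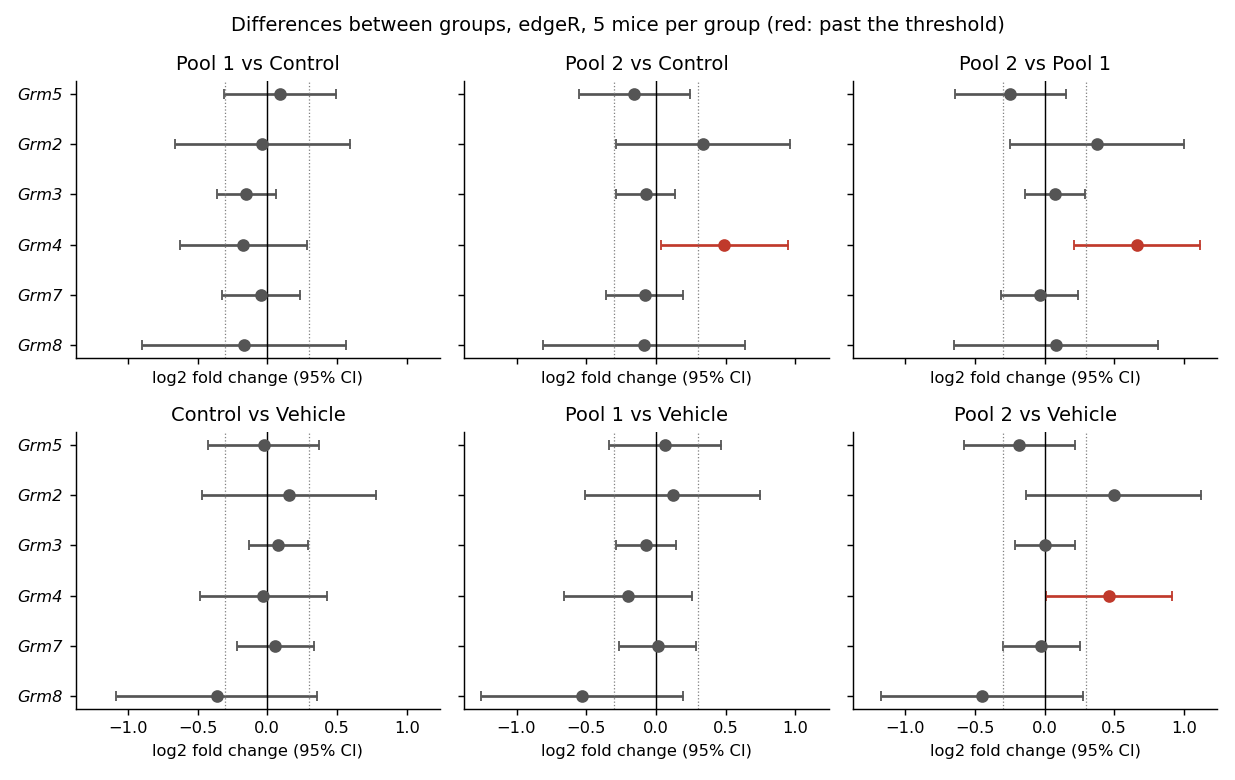
Log2 fold change of each receptor gene in the 6 comparisons (edgeR, 5 mice per group, first-named group over second), with 95% confidence intervals, solid lines at 0, dotted lines at 0.3 to either side, and red for values past the threshold. Grm4 is red in the 3 comparisons of Pool 2, at 0.49, 0.66 and 0.46, the intervals of Grm3 and Grm7 are narrow and those of Grm2 and Grm8 wide.

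Markers of hippocampal cell types and of neighbouring tissue varied along with some of the receptors. Log2 CPM of each member was compared with the mean log2 CPM of 12 thalamus markers over the 20 libraries, since Grm4 is expressed there and the thalamus lies beneath the hippocampus. Grm4 followed these markers, with Pearson's r of 0.73 (permutation p = 0.00035, adjusted p = 0.0021 over the 6 members) and Spearman's rho of 0.65 (permutation p = 0.00251). Adjusted over 60 correlations of members with marker lists, the permutation p was 0.00555 for r and 0.0502 for rho. Without the 2 libraries farthest from the median, Pool 2 replicates 4 and 2, r was 0.48 (permutation p = 0.0425, adjusted p = 0.143), so the adjusted call rests on those libraries. Within single groups r was 0.87 in Vehicle, 0.70 in Pool 1 and 0.84 in Pool 2, but only 0.20 in Control. For deviations from the group means r was 0.57 (permutation p = 0.00792, adjusted p = 0.0475). None of the other members passed after adjustment, with r of 0.51 for Grm2 (permutation p = 0.0178, adjusted p = 0.0534), 0.30 for Grm7, 0.20 for Grm8, -0.02 for Grm5 and -0.05 for Grm3.

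The thalamus markers were higher in the comparisons in which Grm4 was. They were listed with earlier results of these data known, so their counts are descriptions. In Pool 2 vs Control 7 of 12 were past the threshold, all higher, with a median log2 fold change of 0.79 beside 0.00 over all genes, and in Pool 2 vs Pool 1 it was 11 of 12, with a median of 1.48 beside 0.02. Against Vehicle, 7 of 12 were higher in Pool 2, and in Pool 1 vs Control, where Grm4 did not pass, 3 of 12 were lower with a median of -0.49. Their summed level was 182 to 733 CPM in Pool 2, 149 to 175 in Pool 1, 156 to 312 in Control and 206 to 249 in Vehicle. No marker was at 0 in a whole group. Gbx2, 1 of the 3 lower in Pool 1 vs Control, was near the floor. It averaged 0.00897 ± 0.0201 CPM in Pool 1 and 0.363 ± 0.664 CPM in Control (SD, n = 5 each). Of the defining markers Slc17a6, the vesicular glutamate transporter of thalamic neurons, averaged 31.6 ± 23.1 CPM in Pool 2 and 11.2 ± 6.34 CPM in Control (SD, n = 5 each). Pool 2 replicate 4 was highest both for Grm4 and for the markers. Microglia and astrocyte markers were also higher in the same comparisons. Of 8 microglia markers 4 were past the threshold in Pool 2 vs Control (median 0.43) and 6 in Pool 2 vs Pool 1 (median 0.50), none of them lower. Of 8 astrocyte markers it was 1 (median 0.13) and 2 (median 0.22). Against Vehicle it was 1 of 8 microglia and 3 of 8 astrocyte markers. Other lists went the other way in some of these comparisons. Of 6 choroid plexus markers 4 were past the threshold and lower in Pool 2 vs Vehicle (median -2.38). Of 6 CA1 pyramidal markers 1 was lower in Pool 2 vs Pool 1 (median -0.43). Of 8 interneuron markers 1 was lower in Pool 2 vs Pool 1 (median -0.21), and none passed in Pool 2 vs Control (median -0.24). The microglia markers summed to 1075 CPM in Pool 2 replicate 1 and to 314 to 486 CPM in the other Pool 2 mice. They were 298 to 442 CPM in Control and 298 to 363 CPM in Pool 1. Over all genes, 6.22% were past the threshold in Pool 2 vs Control, 6.82% in Pool 2 vs Pool 1 and 4.69% in Pool 2 vs Vehicle. The r of Grm4 with the microglia markers was -0.03 (rho 0.13, permutation p = 0.906 and 0.579, adjusted p = 0.952 and 0.753 over 60), and with the astrocyte markers 0.36 (rho 0.56, permutation p = 0.118 and 0.0113, adjusted p = 0.323 and 0.120). Without the 2 libraries farthest from the median they were 0.18 and 0.50. The part of any of these markers in the Grm4 difference was not tested.

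Grm2 followed the markers of dentate granule cells. Its r with the mean of 6 such markers was 0.90 (permutation p = 1e-05, the smallest that 100000 resamples can give, adjusted p = 0.0006 over 60 correlations of members with marker lists), with rho of 0.87 (permutation p = 2e-05). It was 0.86 without Control replicate 4 and Pool 1 replicate 1, and 0.91 for deviations from the group means. The high Grm2 mice of Control (replicates 4 and 5) had summed granule cell markers of 662 and 563 CPM, against 253 to 321 CPM in the other three, and Pool 1 replicate 1 had 692 CPM against 238 to 360 CPM. Pool 2 mice lay between 395 and 589 CPM. None of the 6 markers passed the threshold in any of the 6 comparisons. The thalamus markers were tested as planned, but they too were listed with earlier results of these data known. The relation of Grm2 with the granule cell markers was chosen after the values were seen, as were 2 others that passed the adjustment over 60. Those were Grm2 with interneuron markers (r = -0.74, rho = -0.70, permutation p = 0.00026 and 0.00102, adjusted p = 0.00555 and 0.0306) and Grm3 with CA3 pyramidal markers (r = -0.72, rho = -0.61, permutation p = 0.00037 and 0.00524, adjusted p = 0.00555 and 0.0786). Without the 2 farthest libraries these were -0.65 and -0.56. For Grm3 and the 8 astrocyte markers r was 0.45 (rho 0.47, permutation p = 0.0446 and 0.0387, adjusted p = 0.178 and 0.191).

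**Figure D4:**
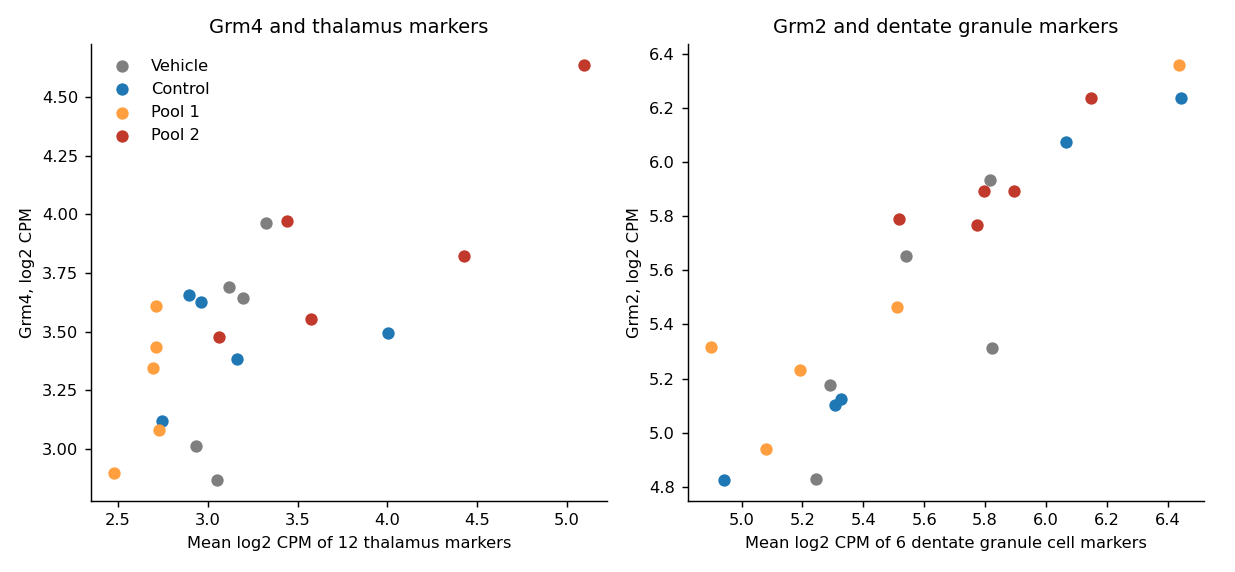
Log2 CPM of Grm4 against the mean log2 CPM of 12 thalamus markers (left) and of Grm2 against that of 6 dentate granule cell markers (right), 1 point per library, coloured by group. Pool 2 replicate 4 is alone at the upper right of the Grm4 panel (r = 0.73, or 0.48 without it and Pool 2 replicate 2), while Grm2 rises with the granule cell markers in all groups (r = 0.90).

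Among the receptors themselves, no pair of the 15 was related after adjustment. The closest was Grm5 with Grm7 (r = 0.62, permutation p = 0.0036, adjusted p = 0.054, rho = 0.35), which was 0.58 without Control replicates 1 and 4.

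The genes most like each receptor over the 20 libraries were sought among 14796 others with a mean of at least 1 CPM, by Pearson's r of log2 CPM. Grm2 was closest to Cemip (0.96), Kcnc4 (0.96), a potassium channel subunit, and Pitpnm2 (0.95). Grm4 was closest to Slc17a6 (0.87), which is also 1 of the thalamus markers, Sema4g (0.84), a semaphorin, and Rasgef1b (0.83). Grm5 had the tightest neighbours, Dennd5b (0.98), Mdga2 (0.97), a synaptic adhesion protein, and Ttbk2 (0.97). Those of Grm7 were Syt10 (0.92), a synaptotagmin, Adamts3 (0.90) and Nrcam (0.89), a neuronal adhesion molecule. Grm8 had Dpy19l1 (0.81), Cbln2 (0.79), a synaptic organiser, and Sorcs1 (0.77), and Grm3 had the loosest, Klhl5 (0.76), Lrp4 (0.72) and Fbn2 (0.71). These genes were ranked as the nearest of all those compared, so their r values are descriptions.

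In 4 lists of genes that act with the receptors, 1 of 62 passed the threshold in Pool 1 vs Control and 4 of 62 in Pool 2 vs Control. Over all genes the shares were 3.48% and 6.22%. Of 16 genes of group I signalling (Homer, Shank, Gq, phospholipase C and their targets) none was past the threshold in Pool 1 vs Control, with a median log2 fold change of 0.12 beside -0.01 over all genes. Among the smallest p-values were those of the scaffolds Shank3 (0.25, SE 0.11) and Shank2 (0.22, SE 0.12). In Pool 2 vs Control 1 was higher, the phospholipase Plcb4 (0.49, SE 0.23; 40.8 ± 19.0 against 29.0 ± 5.66 CPM, SD, n = 5), and none lower, with a median of -0.01. Rgs4, which shortens Gq and Gi/o signals, had 0.23 (SE 0.10) and Homer1 -0.24 (SE 0.14).

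Of 18 genes of Gi/o signalling, the route of groups II and III, 1 was higher in Pool 1 vs Control, the adenylyl cyclase Adcy9 (0.33, SE 0.16; 124 ± 11.0 against 98.4 ± 11.9 CPM, SD, n = 5), and the cyclases Adcy5 (0.17, SE 0.09) and Adcy8 (0.26, SE 0.17) were not past the threshold. None of the 18 passed in Pool 2 vs Control, with a median of -0.06, and the smallest p-values were those of Rgs14 (-0.38, SE 0.23), the potassium channel subunit Kcnj9 (0.21, SE 0.15) and the G protein subunit Gnai2 (0.13, SE 0.10).

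Of 12 scaffolds and partners none passed in Pool 1 vs Control, where Elfn2 (0.22, SE 0.09) and Elfn1 (0.22, SE 0.13), which bind group III receptors across the synapse, and Syn1 (0.15, SE 0.09) led. In Pool 2 vs Control 1 was lower, the calmodulin gene Calm2 (-0.32, SE 0.12; 1461 ± 141 against 1828 ± 278 CPM, SD, n = 5), beside -0.16 for Calm3 (SE 0.10).

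Of 16 genes that handle glutamate and the Grm3 agonist NAAG (N-acetylaspartylglutamate), none passed in Pool 1 vs Control. The leading genes were Slc17a5, a lysosomal transporter (-0.25, SE 0.11), Slc17a7, the main vesicular glutamate transporter of hippocampal neurons (0.21, SE 0.10), and the NAAG synthetase Rimkla (0.18, SE 0.10). In Pool 2 vs Control 1 was higher, Slc17a6 (1.50, SE 0.62), and 1 lower, Slc17a5 (-0.36, SE 0.11; 24.4 ± 2.13 against 31.2 ± 4.93 CPM, SD, n = 5), while Slc17a8 had -0.42 (SE 0.22) and did not pass. Slc17a6 is the thalamus marker described above. Over the 4 lists, 1 of 62 genes was past the threshold in Pool 1 vs Control and 4 of 62 in Pool 2 vs Control, beside 3.48% and 6.22% of all genes, and the lowest edgeR adjusted p was 0.917 and 0.479.

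**Figure D5:**
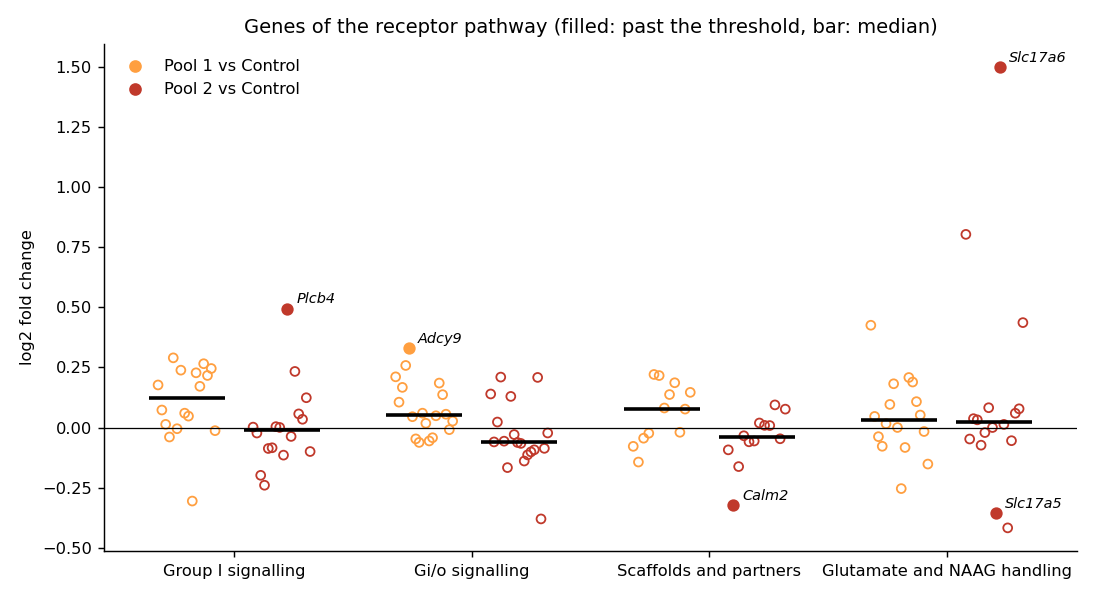
Log2 fold change (edgeR) of each gene in the 4 pathway lists, in Pool 1 vs Control and Pool 2 vs Control, filled where past the threshold, with a bar at the median. Most genes lie near 0, Slc17a6 is alone at 1.50 in Pool 2, and the medians run from -0.06 to 0.12.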

How the data were processed

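RNA-seq of 20 hippocampal samples was analysed, grouped by the sample labels into Vehicle, Control, Pool 1 and Pool 2. The authors made stranded poly(A)-selected libraries, sequenced 50-nt single-end reads, mapped them with STAR to GRCm38 with GENCODE M20, and deposited raw read counts per gene. Per the file headers and values, the unit is the count, without normalization, and the smallest sum of a gene over all samples was 10. With at least 20588280 counts per library, members had from 39 (Grm8) to 8112 (Grm5) counts each. The submitters' processing notes name FastQC 0.11.5.

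Counts were scaled by TMM and fitted with edgeR 4.0.16 (glmQLFit with robust spread, glmQLFTest) in R 4.3.3, in a joint model of the groups without a filter. P-values were adjusted by Benjamini-Hochberg over 25190 genes. The threshold was a log2 fold change of 0.3 in either direction with an unadjusted p under 0.05. Log2 CPM used a prior count of 2. Permutation tests were two-sided and exact for groups, with 100000 resamples for correlations (SciPy 1.17.1). Steps were tested on simulated data. Positions, exon lengths and sequences came from GENCODE M21 (GRCm38), which held 99.8% of the gene identifiers and the members at the same coordinates.

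Named genes were the members, the 3 genes most like each, and the 3 genes of smallest p per pathway list in each pool vs Control, some of which are not reported here. Members and lists were chosen with earlier results of these data known. The counts of any 2 replicates differed with a chi-square of at least 7.59 per degree of freedom, so none was a repeat. Alternatives were DESeq2 1.42.0, its size factors, a mean normalized count of at least 10, filterByExpr, the default spread, a replicate block, models of the compared pair of groups alone, and leaving out libraries.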

Additional observations from a re-analysis of the deposited data

Results flagged for a closer look

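In each of the 24 sets of 5 libraries (6 genes in 4 groups), the highest and lowest library was checked for a gap to its nearest neighbour above 0.71 of the group's whole range (Dixon's test). Chance alone gives such a gap in about 1 in 20 groups, and 4 were found. Grm2 was 82.0 CPM in Pool 1 replicate 1, where the other mice had 30.6 to 44.0 CPM, and 75.3 CPM in Pool 2 replicate 2, where the others had 54.4 to 59.4 CPM. Those mice also had the highest dentate granule cell markers of their groups (692 and 589 CPM summed). Grm5 was 206 CPM in Vehicle replicate 5, below 285 to 299 CPM in the other Vehicle mice. Grm8 was 9.73 CPM in Vehicle replicate 1, above 3.92 to 4.33 CPM.

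Grm4 passed the unadjusted threshold in the direct comparison of the patient pools, though not after adjustment. Pool 2 minus Pool 1 was 0.66 on the log2 scale (edgeR adjusted p = 0.368), and it was 0.43 without Pool 2 replicate 4, whose thalamus markers were the highest of the series at 733 CPM summed.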

How the results depend on the processing

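Across 648 values (6 genes, 6 comparisons, 18 alternatives each) 584 kept their direction and their side of the threshold, and none had an adjusted p under 0.05 (lowest 0.174, Grm4 in Pool 2 vs Pool 1 by DESeq2). Whether the replicate numbers pair the mice was not tested. Over 30 same-numbered pairs the correlation of deviations ran from -0.38 to 0.30, with 12 above 0.1 and a median of 0.02. For pairs of other numbers it ran from -0.52 to 0.56, with 31 of 120 above 0.1 and a median of -0.01. With the replicate block, the number of receptor genes past the threshold fell from 1 to 0 in Pool 2 vs Control (Grm4 0.47) and in Pool 2 vs Vehicle (Grm4 0.43), its edgeR p no longer being under 0.05. It changed no other call, and the cause was not tested. Leaving out Vehicle replicate 4 and Pool 2 replicate 1 together also gave 0 in Pool 2 vs Vehicle (Grm4 0.46). Leaving out each library in turn gave 0 to 1 genes in Pool 2 vs Control and Pool 2 vs Vehicle, and 1 to 2 in Pool 2 vs Pool 1, where Grm2 joined without Pool 1 replicate 1 (0.68) and Grm5 without Pool 1 replicate 5 (-0.41). With only the 2 groups compared, the call in Pool 2 vs Vehicle was Grm2 (0.49) and no longer Grm4 (0.47).

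Signs changed 48 times, in 18 of the 36 differences, none of them past the threshold under either setting. Leaving out 1 library at a time, Pool 1 vs Control ran from -0.34 to 0.19 for Grm2, -0.014 to 0.25 for Grm5, -0.16 to 0.046 for Grm7 and -0.36 to 0.13 for Grm8. Pool 2 vs Control ran from -0.13 to 0.0014 for Grm3, -0.19 to 0.0015 for Grm7 and -0.28 to 0.22 for Grm8. Pool 2 vs Pool 1 ran from -0.12 to 0.052 for Grm7 and -0.11 to 0.22 for Grm8. Control vs Vehicle ran from -0.061 to 0.32 for Grm2, -0.15 to 0.13 for Grm4, -0.11 to 0.074 for Grm5 and -0.029 to 0.17 for Grm7. Pool 1 vs Vehicle ran from -0.18 to 0.30 for Grm2, -0.039 to 0.23 for Grm5 and -0.075 to 0.086 for Grm7. Pool 2 vs Vehicle ran from -0.047 to 0.068 for Grm3 and -0.11 to 0.028 for Grm7. Without Vehicle replicate 4 and Pool 2 replicate 1 the values were 0.053 for Grm8 in Pool 2 vs Control, 0.016 for Grm7 in Pool 2 vs Pool 1, and -0.080 for Grm3 and 0.019 for Grm7 in Pool 2 vs Vehicle. With the thalamus markers, r of Grm3 became 0.33 without the 2 farthest libraries and r of Grm5 became 0.22 for deviations from group means.

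Over the whole table, filters on low counts lowered the number of genes past the threshold by more than 1.5 times in most comparisons, with fewer genes tested. A mean normalized count of at least 10 left 402 of 876 in Pool 1 vs Control, 969 of 1566 in Pool 2 vs Control, 1133 of 1718 in Pool 2 vs Pool 1, 795 of 1285 in Control vs Vehicle, 795 of 1345 in Pool 1 vs Vehicle and 703 of 1181 in Pool 2 vs Vehicle. By filterByExpr the numbers were 426 in Pool 1 vs Control, 960 in Pool 2 vs Control, 821 in Control vs Vehicle, 776 in Pool 1 vs Vehicle and 723 in Pool 2 vs Vehicle, the last being 786 without Vehicle replicate 4 and Pool 2 replicate 1. At 5 mice per group, the intervals of Grm2 and Grm8 were the widest, and in both pools vs Control they included the 0.49 seen for Grm4.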
